A study of Rattus norvegicus with 10 samples.

Results

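The neurotrophins are secreted growth factors of neurons, and 8 genes of this system were followed here: the ligands Bdnf, Ntf3 and Ntf4, the receptor kinases Ntrk2 and Ntrk3, the p75 receptor Ngfr, the sorting receptor Sort1 and the ligand Gdnf of a neighbouring growth factor family. They were picked by name, and each was represented by the transcript record with the highest mean read count under its symbol. The 8 genes held 23 of the 32041 transcript records in the count matrix, which named 16610 distinct genes in all. A record was tested when its counts summed to at least 46 over the 10 rats, and 7 of the 8 genes passed that limit.

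Male Sprague-Dawley rats, an outbred strain, had a bipolar electrode implanted in the left lateral amygdala. After recovery, 5 rats received 30 min of current (400 µA pulses, 60 Hz) that set off status epilepticus, a long-lasting seizure state that leads on to spontaneous seizures, and 5 age-matched sham rats kept their electrodes without current. Per the labels, the stimulated rats were also given diazepam to end the status epilepticus, so current, seizures and drug cannot be told apart. A piece of left hippocampus with the CA3 field and dentate gyrus was taken 3 months later, and polyadenylated RNA was sequenced from each rat. Rats 1 to 5 were sham and rats 6 to 10 stimulated. The labels give 5 stimulated rats for this assay, whereas the study's methods count 4 and do not say which was left out.

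BDNF and NT-4, the product of Ntf4, bind the kinase TrkB, encoded by Ntrk2, and NT-3, the product of Ntf3, binds TrkC, encoded by Ntrk3. The uncleaved proforms bind the p75 receptor together with sortilin, and this pair of receptors can drive cell death where the Trk kinases support survival and synaptic growth. In the hippocampus, Bdnf is transcribed from several alternative first exons in response to neuronal activity, and the mossy fibres of dentate granule cells are rich in the protein. GDNF signals differently, through a GFRα co-receptor and the kinase Ret.

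The start regions of the ligands are shown because the 2 genes that stood furthest from sham in opposite directions, Bdnf and Ntf3, are both transcribed from several starts. RefSeq windows of the GRCr8 build, each running from 250 bases before to 50 bases after an annotated transcript start, were at hand for 5 of the 8 genes, with 6 windows for Bdnf and 3 for Ntf3. The first and second sequences below are the Bdnf windows chr3:116637608-116637907 and chr3:116621721-116622020 on the plus strand, and the third is the Ntf3 window chr4:160668858-160669157 on the minus strand, each written 5′ to 3′ along its gene. Capitals mark the half-site of the cyclic AMP response element (TGACG on either strand) or the AP-1 element (TGANTCA on either strand), searched because CREB and Fos family factors bind such letters.
Bdnf window with a half-site: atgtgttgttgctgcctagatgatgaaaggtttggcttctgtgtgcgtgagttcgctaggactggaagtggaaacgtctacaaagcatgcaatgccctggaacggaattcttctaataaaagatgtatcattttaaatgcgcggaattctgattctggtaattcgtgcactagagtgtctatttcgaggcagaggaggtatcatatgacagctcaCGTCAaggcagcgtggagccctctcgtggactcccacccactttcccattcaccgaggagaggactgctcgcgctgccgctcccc
Bdnf window with an AP-1 element: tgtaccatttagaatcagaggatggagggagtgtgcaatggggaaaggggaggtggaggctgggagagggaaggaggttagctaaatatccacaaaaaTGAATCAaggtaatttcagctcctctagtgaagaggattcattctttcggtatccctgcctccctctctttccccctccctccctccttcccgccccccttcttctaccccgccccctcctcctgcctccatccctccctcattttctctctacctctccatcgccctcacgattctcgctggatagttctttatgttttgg
Ntf3 window: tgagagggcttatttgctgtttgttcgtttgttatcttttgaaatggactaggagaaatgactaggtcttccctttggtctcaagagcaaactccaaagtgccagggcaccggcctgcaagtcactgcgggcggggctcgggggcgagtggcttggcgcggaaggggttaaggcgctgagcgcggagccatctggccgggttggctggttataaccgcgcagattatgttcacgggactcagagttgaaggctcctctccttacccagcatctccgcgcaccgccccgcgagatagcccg
The half-site stood at position -35 from the annotated start in the first Bdnf window, and the AP-1 element at position -152 in the second. Such letters are common: 21.2% of 33469 rat windows of the same kind held the half-site, 7.33% the AP-1 element and 1.83% the full palindrome TGACGTCA. None of these letters occurred in the other 4 Bdnf windows or the 3 Ntf3 windows. The Gdnf window chr2:58621077-58621376 on the plus strand also held a half-site, at position -49. A match describes the letters and not a bound site.

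Libraries held 13552309 to 24086059 aligned counts, and 32.8 to 37.1% of reads were left unaligned in sham rats against 35.6, 32.0, 41.4, 42.9 and 45.1% in stimulated rats 6 to 10. Rats 8, 9 and 10 thus lay above all sham rats in this share, and rat 7 below them. Values below are in CPM, read counts scaled to a common library size by the trimmed mean method, and since they are not corrected for transcript length a level is compared between rats and not between genes. Fold changes are stimulated over sham on the log2 scale with a standard error (SE), from the edgeR quasi-likelihood test over all 22447 tested records, and adjusted p-values are Benjamini-Hochberg values over all of them. Across all tested records, 0% passed an adjusted p of 0.05 with this test, while 32 passed with DESeq2, 119 with the edgeR likelihood ratio test and 89 with the edgeR exact test. At an unadjusted p under 0.05, 6.7% were higher in stimulated rats and 3.16% lower. The groups did not overlap in 0.695% of records with stimulated rats higher and in 0.597% with stimulated rats lower. All 10 general neuronal markers were tested, with a mean log2 CPM between 8.73 and 8.94 in the rats. So were 6 of 8 CA3 markers, 5 of 9 dentate granule cell markers, 6 of 7 CA1 markers and 7 of 8 choroid plexus markers. Passing the count limit therefore does not identify the tissue piece.

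Among the 7 tested genes, 0 passed an adjusted p of 0.05 (0% of all records did). At an unadjusted p under 0.05, 1 was higher and 0 lower (14.3% and 0%, against 6.7% and 3.16% of all records). The groups separated completely in 0 of these genes, against 0.695% of all records with stimulated rats higher and 0.597% with stimulated rats lower. Because the tissue was a mixture of cells, fewer cells of a type and less RNA per cell cannot be told apart in any of these values.

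**Figure D1:**
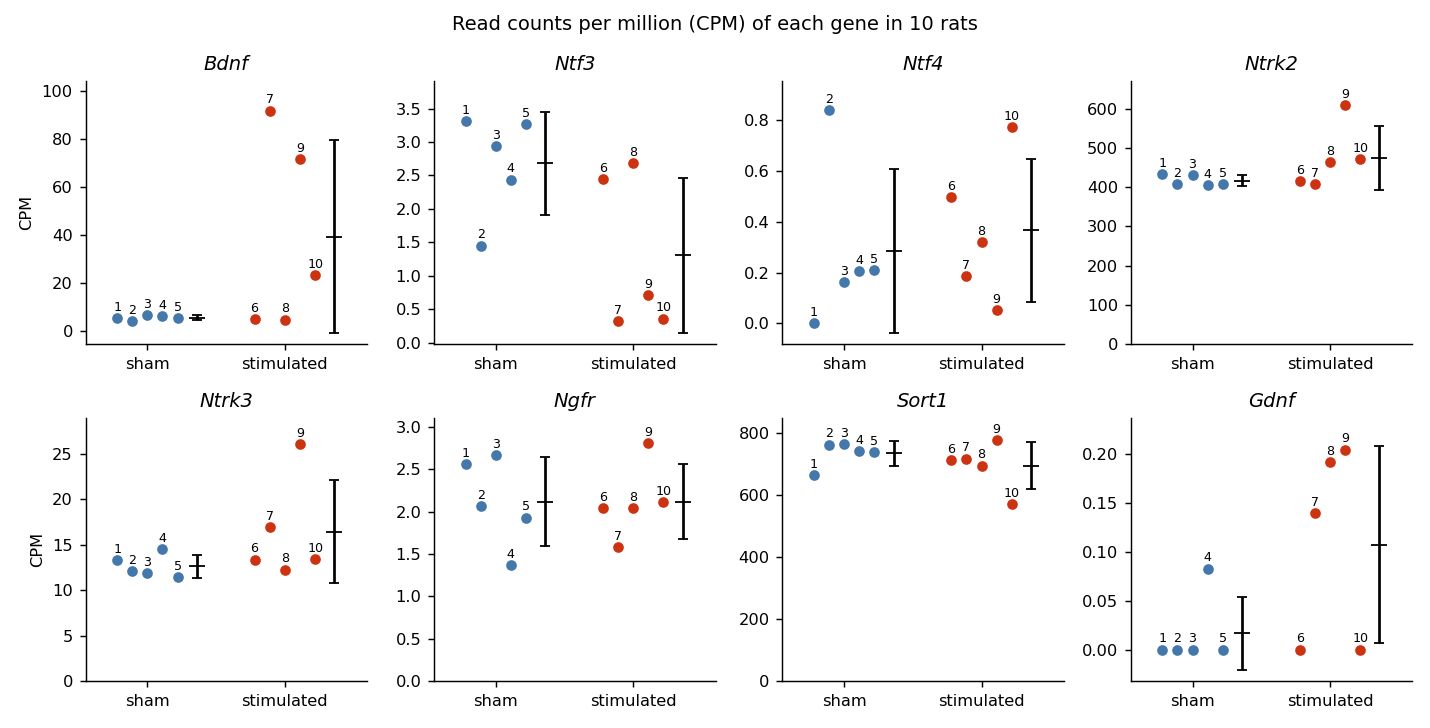
CPM of the 8 genes in each rat, with rat numbers beside the points (blue sham, red stimulated) and bars for the group mean and SD (n = 5 each). Bdnf is high and Ntf3 low in stimulated rats 7, 9 and 10, while rats 6 and 8 lie within the sham range for both genes. Each panel has its own axis.

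Bdnf, the main activity-regulated ligand of TrkB, had the largest difference of the 7 tested genes. Its leading record (NM_012513) stood at 5.24, 4.27, 6.75, 6.33 and 5.32 CPM in sham rats 1 to 5. In stimulated rats 6 to 10 it stood at 4.84, 91.8, 4.79, 71.7 and 23.3 CPM. Rats 7, 9 and 10 were above all sham rats, at 16.4, 12.9 and 4.17 times the sham mean, and rats 6 and 8 lay inside the sham range. The raw counts behind these values were 56 to 153 in sham rats and 107, 1977, 75, 1406 and 451 in stimulated rats. On average Bdnf had 5.58 ± 0.976 CPM in sham against 39.3 ± 40.1 CPM after stimulation (SD, n = 5 each). The fitted log2 fold change was 2.81 (SE 0.693, 95% interval 1.32 to 4.30), with an unadjusted p of 0.00123, rank 57 of the 22447 records, and an adjusted p of 0.376 in edgeR. The difference of the group means of log2 CPM was smaller than the fitted value, at 1.88. An exact permutation test of that difference over all possible assignments of rats, two-sided, gave p = 0.135. The call depended on the test: the edgeR likelihood ratio test and exact test put Bdnf at an adjusted p of 0.0144 and 0.0197, and DESeq2 at 0.0871.

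Ntf3, the ligand of TrkC, went the opposite way in the same rats. Its leading record (NM_001270868) had 3.32, 1.45, 2.94, 2.44 and 3.27 CPM in sham rats 1 to 5. The stimulated rats 6 to 10 had 2.44, 0.325, 2.68, 0.714 and 0.361 CPM. Rats 7, 9 and 10 were below all sham rats, at 0.121, 0.266 and 0.135 times the sham mean, and rats 6 and 8 were again inside the sham range. Those 3 low values rest on 7, 14 and 7 counts. The mean was 2.68 ± 0.773 CPM in the sham group and 1.31 ± 1.16 CPM in the stimulated group (SD, n = 5 each). The log2 fold change of -1.06 (SE 0.508, 95% interval -2.15 to 0.03) had an unadjusted p of 0.0557 and an adjusted p of 0.518, and the exact permutation test gave p = 0.0714.

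Ntf4, the second ligand of TrkB, was barely detected, with 60 counts in the 10 rats together. Its counts were 0, 11, 3, 5 and 5 in sham rats and 11, 4, 5, 1 and 15 in stimulated rats. The groups overlapped over most of their range. The log2 fold change was 0.46 (SE 0.775, 95% interval -1.20 to 2.13, adjusted p = 0.88), so a change of either sign by up to about that interval was not detectable at this depth.

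Gdnf, the ligand of the GFRα1 and Ret receptor pair, had 12 counts in all and was not tested. It was at 0 in 6 rats, and a count of 0 allows a level of up to 0.124 to 0.229 CPM in a library of these sizes. The rats with counts were sham rat 4 with 2 and stimulated rats 7, 8 and 9 with 3, 3 and 4. No difference between the groups can be read from so few counts.

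**Figure D2:**
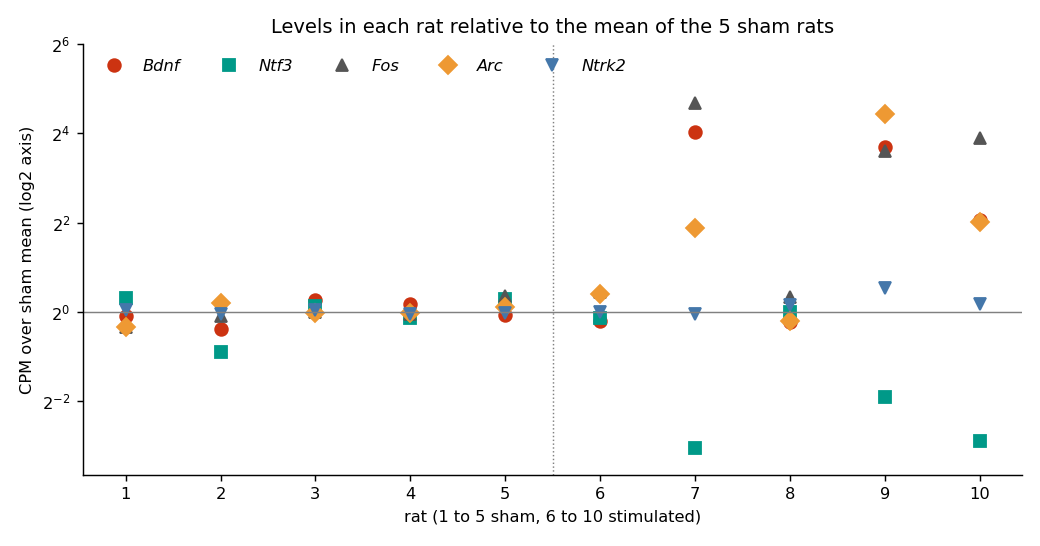
CPM of each rat divided by the mean of the 5 sham rats, on a log2 axis, for Bdnf, Ntf3, Ntrk2 and the activity genes Fos and Arc. In rats 7, 9 and 10 Bdnf, Fos and Arc lie above 1 and Ntf3 lies below it, while the values of Ntrk2 range from 0.971 to 1.46 over the 10 rats.

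Among the immediate early genes, which neurons switch on within minutes of firing, Fos and Arc were high in the same rats as Bdnf. Fos had 3.26 to 5.32 CPM in sham rats and 5.61, 106, 5.24, 50.3 and 61.7 CPM in stimulated rats 6 to 10. Arc, whose RNA is carried to active synapses, had 41.0 to 59.1 CPM in sham rats and 68.3, 188, 44.4, 1118 and 208 CPM in stimulated rats. The order of the high rats differed between genes: Bdnf and Fos were highest in rat 7, and Arc in rat 9. Npas4, an activity-dependent factor that binds Bdnf promoters, did not follow them, with 0.371 and 1.22 CPM in rats 7 and 9 against 0 to 1.13 CPM in sham rats, and 11.9 CPM in rat 10. The mean log2 CPM of 16 immediate early genes was 3.69 to 4.0 in sham rats and 3.96, 5.54, 3.67, 5.97 and 5.34 in rats 6 to 10, and the part of recent activity in the Bdnf and Ntf3 values was not tested. The score of 6 of 8 CA3 markers was 6.84 to 6.97 in sham rats and 6.86, 7.34, 6.98, 6.99 and 7.42 in stimulated rats. Summed levels were 1276 to 1480 CPM against 1334 to 2203 CPM. In group means, sham against stimulated, Chgb had 771 and 1056 CPM and Lyz2 19.1 and 34.2 CPM. Bok had 62.8 and 71.2 CPM, Homer3 81.9 and 84.8, Grik4 152 and 153, and Cpne4 264 and 257. For 12 microglial markers the score was 4.56 to 4.97 in sham rats and 4.64, 5.17, 4.72, 5.20 and 4.97 in stimulated rats. Their sums were 472 to 575 CPM against 505 to 737 CPM. The score of 6 of 7 CA1 markers was 3.22 to 4.21 in sham rats and 4.53, 3.12, 3.92, 3.80 and 3.02 in stimulated rats, with sums of 182 to 308 CPM against 108 to 367 CPM, so rats 7 and 10 were below all sham rats. For 11 interneuron markers the score was 5.05 to 5.21 in sham rats and 5.25, 4.93, 4.85, 5.20 and 4.94 in stimulated rats, with sums of 594 to 691 CPM against 535 to 665 CPM, so rats 7, 8 and 10 were below. These markers disagreed in group means: Sst (42.1 CPM in sham, 63.8 CPM in stimulated rats), Gad2, Vip and Reln were higher after stimulation. The other interneuron markers were lower, among them Gad1 (164.6 and 141.9 CPM). For 11 oligodendrocyte markers it was 7.14 to 7.64 in sham rats and 7.34, 6.80, 7.30, 7.58 and 7.44 in stimulated rats, lowest in rat 7, with sums of 2912 to 4186 CPM against 2348 to 3967 CPM. The part of these cell types, and of the unaligned share, in the same values was not tested either.

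Ntrk2, which encodes TrkB as a full kinase and as a truncated form found in astrocytes, differed between the groups by less than the spread of the stimulated rats. Its leading record (NM_001163168) had 433, 407, 432, 405 and 408 CPM in sham rats and 415, 407, 464, 609.9 and 472 CPM in stimulated rats 6 to 10. Rats 8, 9 and 10 were above all sham rats, and rat 7, the rat with the most Bdnf, was within the sham range. Means were 417 ± 14.2 and 473.7 ± 81.5 CPM (SD, n = 5 each). The log2 fold change was 0.18 (SE 0.102, 95% interval -0.04 to 0.40, unadjusted p = 0.0931, adjusted p = 0.564), so a difference larger than 0.40 lay outside the interval. The second record of the gene (NM_012731) had 102 to 127 CPM in sham rats and 129, 179, 111, 206 and 117 CPM in stimulated rats (log2 fold change 0.32, SE 0.157). Rats 7 and 9 were highest for this record. The score of 10 of 11 astrocyte markers was 7.35 to 7.59 in sham rats and 7.48, 7.44, 7.56, 7.72 and 7.66 in stimulated rats. Sums ran from 3616 to 4095 CPM against 3676 to 8914 CPM. Gfap had the largest gap between group means, 1593 against 3329 CPM (sham first). Aldh1l1 (44.2 against 36.7 CPM) and Gjb6 (49.3 against 48.6 CPM) were lower after stimulation, and Fgfr3 was nearly equal (65.0 against 65.6 CPM). The remaining astrocyte markers were higher, by fewer CPM than Gfap. The part of this score in the Ntrk2 values was not tested. Rats 8, 9 and 10, the rats above all sham rats for the leading record, were also those with the largest unaligned shares, 41.4 to 45.1%, whose part was not tested.

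Ntrk3, the TrkC kinase and partner of NT-3, was highest in rats 7 and 9. It had 13.3, 12.1, 11.9, 14.5 and 11.4 CPM in sham rats and 13.3, 16.9, 12.3, 26.1 and 13.4 CPM in stimulated rats. Rats 7 and 9 stood above all sham rats and the other 3 stimulated rats lay among them. The log2 fold change was 0.38 (SE 0.191, 95% interval -0.03 to 0.79) with an adjusted p of 0.535. In rat 10, where Ntf3 was low, Ntrk3 was at 1.06 times the sham mean.

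Ngfr, the p75 receptor that all neurotrophins and their proforms bind, had the same mean in both groups, 2.12 ± 0.525 CPM without and 2.12 ± 0.44 CPM with stimulation (SD, n = 5 each). The sham rats had 2.56, 2.06, 2.67, 1.36 and 1.93 CPM and the stimulated rats 2.04, 1.58, 2.04, 2.81 and 2.12 CPM. The ranges overlapped almost fully, and the 95% interval of the log2 difference ran from -0.51 to 0.52 around 0.01. At 27 to 55 counts per rat, a smaller difference than that was not detectable.

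Sort1, or sortilin, which sorts BDNF into the regulated secretory route and binds proneurotrophins at the surface, was measured with the most counts. It had 664, 763, 766, 742 and 738 CPM in sham rats 1 to 5. Stimulated rats 6 to 10 had 712, 718, 695, 777 and 572 CPM. Rat 10 was the lowest of all rats and rat 9 the highest, and the groups overlapped. The log2 fold change was -0.08 (SE 0.0846, 95% interval -0.26 to 0.10, adjusted p = 0.783), the narrowest interval of the 7 genes.

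**Figure D3:**
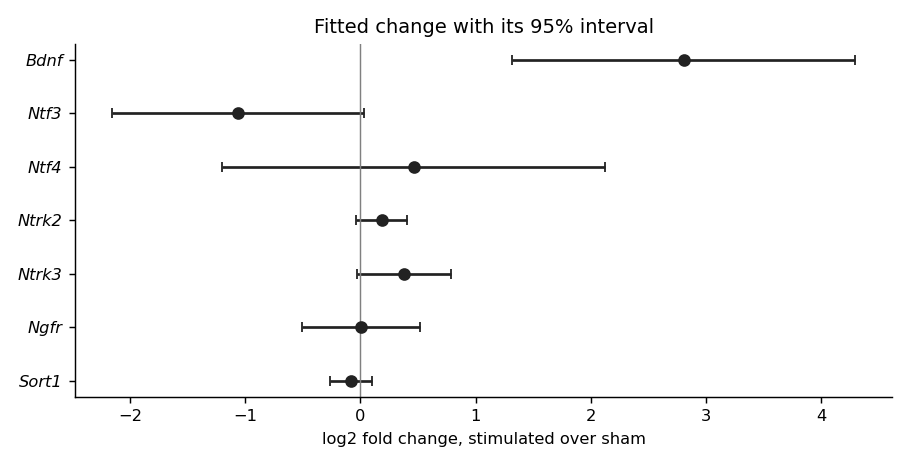
Log2 fold change of stimulated over sham for the 7 tested genes (points) from the edgeR quasi-likelihood fit. Bars are 95% intervals built from the SE derived from its F statistic. The interval of Bdnf lies above 0, that of Ntf3 reaches 0.03, and those of the receptors Ntrk2, Ntrk3, Ngfr and Sort1 span 0.

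Several genes had more than 1 transcript record. Bdnf had 10, Ntf3 4, Ntrk3 3 and Ntrk2 2. All 10 Bdnf records were high in rats 7, 9 and 10: the log2 fold change ranged from 1.64 to 2.81. The leading record took 9.89 to 12.7% of all Bdnf counts in sham rats. In stimulated rats 6 to 10 it took 11.7, 22.2, 11.9, 18.0 and 13.9%, so its share was above the sham range in the rats with the most Bdnf. The 9 other records had similar values within each rat, for example 33.8 to 37.0 CPM in rat 7 and 31.7 to 43.5 CPM in rat 9. Records of 1 gene share exons, and how a read on shared sequence was counted is not given in the sources used here. The log2 ratio of the leading Bdnf record to each other record was 0.32 to 0.71 higher in stimulated rats, with a lowest exact permutation p of 0.0397 and a lowest adjusted p of 0.262 over the 15 ratios of the 4 genes. The smallest p this test can give is 0.00794, so a single ratio could not pass an adjusted p of 0.05.

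The Ntf3 records shared a pattern as well. The 4 records had log2 fold changes of -0.94 to -1.21, and each was lowest in rats 7, 9 and 10. Summing the records of a gene gave 8.01 to 11.9 CPM of Ntf3 in sham rats and 9.37, 1.44, 9.57, 2.86 and 0.929 CPM in stimulated rats 6 to 10. On these sums Ntf3 differed by -1.07 on the log2 scale (SE 0.495, edgeR unadjusted p = 0.0481, adjusted p = 0.502), which put it past the unadjusted threshold that its leading record missed. Summed Bdnf had 41.4 to 58.1 CPM in sham rats and 41.5, 413, 40.3, 399 and 168 CPM in stimulated rats (log2 fold change 2.12, SE 0.551, adjusted p = 0.392). The leading Ntrk2 record held 76.3 to 79.9% of the gene's counts in sham rats and 76.3, 69.5, 80.6, 74.8 and 80.2% in stimulated rats, lowest in rat 7.

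**Figure D4:**
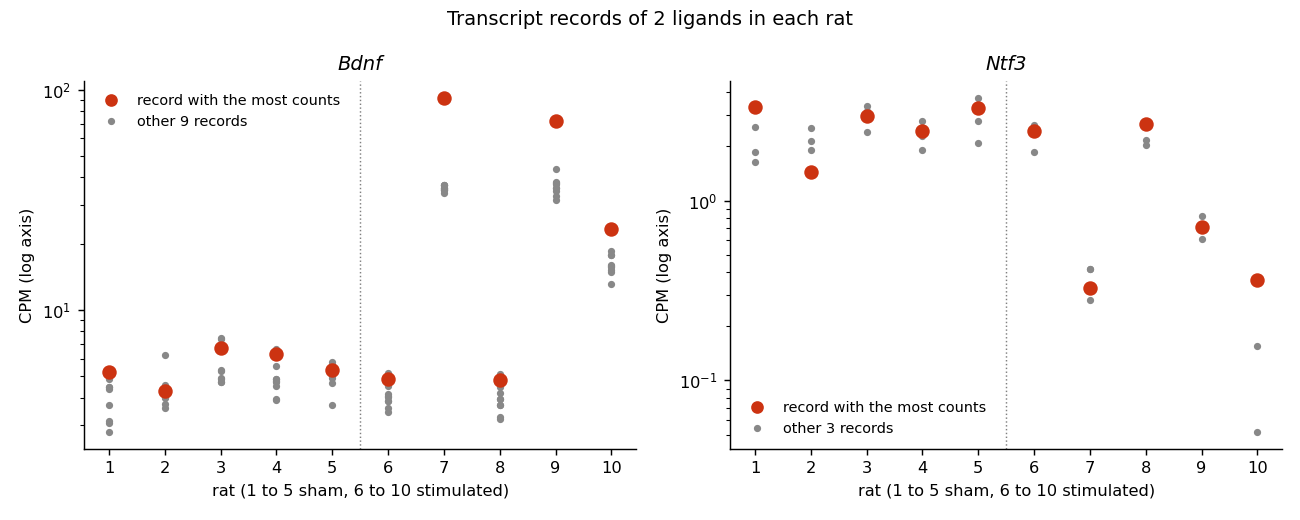
CPM of all 10 Bdnf and all 4 Ntf3 transcript records in each rat on a log axis, with the record of the highest mean count in red. In rat 7 the red Bdnf record is at 91.8 CPM and the other 9 are between 33.8 and 37.0 CPM. The Ntf3 records lie below 1 CPM in rats 7, 9 and 10.

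The genes around the neurotrophins were described from lists written with earlier results of these data known, so their counts support nothing by themselves. Of 9 tested genes of the GDNF system, 2 were higher and 1 lower at an unadjusted p under 0.05 (22.2% and 11.1%, against 6.7% and 3.16% of all records), with a median log2 fold change of -0.06 against 0.01 over all tested records. Ret, the signalling kinase, had 4.82 to 7.73 CPM in sham rats and 7.01, 28.8, 6.13, 12.0 and 15.2 CPM in stimulated rats, a log2 fold change of 1.12 (SE 0.353). The co-receptor Gfra1 had 22.6 to 28.9 CPM in sham rats and 30.8, 80.4, 16.1, 43.7 and 57.3 CPM in stimulated rats, a log2 fold change of 0.84 (SE 0.305), and rat 8 was below all sham rats while the other 4 were above them. Sdc3, a heparan sulphate proteoglycan that binds GDNF, was lower at -0.28 (SE 0.116). Adjusted p-values of these 3 genes ran from 0.396 to 0.457.

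Among 4 sortilin relatives, Sorcs1 was the only gene under an unadjusted p of 0.05, 25% against the 6.7% of all records that were higher. It had 2.27 to 3.68 CPM in sham rats and 3.94, 7.75, 4.41, 3.52 and 3.66 CPM in stimulated rats, or 0.72 on the log2 scale (SE 0.247, adjusted p = 0.412). The list had a median of 0.34.

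The list on proneurotrophin cleavage, proteases and their regulators, included the largest differences near the family. Of 11 tested genes, 4 were higher and 0 lower at an unadjusted p under 0.05, 36.4% against 6.7% of all records, and the median was 0.27. Mmp9, an extracellular protease able to cleave proBDNF, had 0.175 to 1.32 CPM in sham rats and 1.85, 20.4, 0.894, 17.5 and 56.9 CPM in stimulated rats, or 4.38 on the log2 scale (SE 0.915, adjusted p = 0.376). It was highest in rat 10, where Bdnf was lowest of the 3 high rats. Plat, the tissue plasminogen activator that starts the plasmin route, had 40.4 to 48.2 CPM in sham rats and 63.0, 167, 55.5, 78.1 and 122.8 CPM in stimulated rats, and here the groups did not overlap (log2 fold change 1.12, SE 0.248, adjusted p = 0.376). Furin, the convertase of the secretory route, was higher at 0.62 (SE 0.243). The convertases Pcsk1, Pcsk2, Pcsk6 and Pcsk7 had log2 fold changes of 0.03 to 0.27 and none passed.

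Scores of vascular markers were above the sham range in most stimulated rats. The mean log2 CPM of 11 pericyte and fibroblast markers was 2.82 to 3.00 in sham rats and 3.00, 3.04, 3.69, 3.41 and 3.78 in stimulated rats. All 5 stimulated rats were above the sham rats, but rat 6 only narrowly, at 3.004 against 3.001 in sham rat 2. Summed levels overlapped, with 90.7 to 110.3 CPM against 109.5 to 187 CPM. For 10 of 11 endothelial markers the score was 3.81 to 3.96 in sham rats and 4.12, 3.81, 4.23, 4.02 and 4.87 in stimulated rats, with sums of 200.4 to 217 CPM against 195 to 401 CPM. Of these markers, only Slco1a4 had a lower group mean after stimulation (36.4 CPM in sham, 35.1 CPM in stimulated rats), and Emcn was nearly equal (3.85 and 3.91 CPM). None of the tested markers of either list was at 0 in any rat. In rat 7 the endothelial score was within the sham range. The part of these cell types in the protease values was not tested.

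Most signalling genes downstream of the receptors did not pass. Of 49 tested Trk adaptors and kinases, 4 were higher and 2 lower at an unadjusted p under 0.05 (8.16% and 4.08%), near the 6.7% and 3.16% of all records, with a median of 0.02. Mapk3, which encodes ERK1, had 324 to 729 CPM in sham rats and 351, 275, 433, 438 and 244 CPM in stimulated rats, a log2 fold change of -0.66 (SE 0.207). Its sham range was wide, and 2 stimulated rats were below it. Grb2, the adaptor that links Trk to Ras, had 259 to 289.7 CPM in sham rats and 261, 536, 273, 416 and 353 CPM in stimulated rats, a log2 fold change of 0.43 (SE 0.162). The adaptor Irs2 was higher at 0.90 (SE 0.350), with 341 CPM in rat 9 against at most 86.6 CPM in sham rats, and the kinase Rps6ka3 at 0.50 (SE 0.201). Adjusted p-values of these 4 genes ran from 0.396 to 0.446.

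The p75 side gave a similar share. Of 28 tested partners, 2 were higher and 1 lower at an unadjusted p under 0.05 (7.14% and 3.57%, against 6.7% and 3.16% of all records), with a median of 0.07. Lingo1, which joins p75 in a receptor complex that limits axon growth, had 241 to 313 CPM in sham rats and 263, 1138, 273, 908 and 463 CPM in stimulated rats, a log2 fold change of 1.07 (SE 0.342). It followed the rats in the order of Bdnf, with rat 7 highest, then 9, then 10. Myd88 was higher at 0.62 (SE 0.265), and Bex1, a small protein that binds the p75 tail, was lower at -0.44 (SE 0.196), with adjusted p-values of 0.399 to 0.482 for the 3 genes.

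Of 26 tested regulators of Bdnf transcription, 4 were higher and 1 lower at an unadjusted p under 0.05. These shares were 15.4% and 3.85%, against 6.7% and 3.16% of all records, and the median log2 fold change was 0.05. Crtc1, a coactivator of CREB, had 88.3 to 110.5 CPM in sham rats and 93.0, 66.1, 92.3, 76.3 and 78.7 CPM in stimulated rats, lower in the 3 rats with more Bdnf (log2 fold change -0.31, SE 0.106). Atf4 was higher at 0.45 (SE 0.173) and Rest, a repressor of neuronal genes, at 0.74 (SE 0.301). Npas4 was higher at 2.40 (SE 0.887) through rat 10. Creb1 itself averaged 1.88 CPM without stimulation and 2.03 CPM with it, a log2 fold change of 0.12 (SE 0.244).

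Of 19 genes that BDNF is known to induce in cultured neurons, 18 were higher and 0 lower at an unadjusted p under 0.05 (94.7% and 0%, against 6.7% and 3.16% of all records), with a median of 1.62. Most of them also answer directly to neuronal firing, and the list was written with their values in these rats known. Inhba, the activin βA subunit, had 0.880 to 1.14 CPM in sham rats and 1.67, 29.2, 1.85, 50.4 and 7.43 CPM in stimulated rats, with no overlap and a log2 fold change of 4.21 (SE 0.855). Npy, an inhibitory neuropeptide of the mossy fibres in epilepsy, had 5.53 to 11.2 CPM in sham rats and 8.60, 192, 5.36, 80.2 and 107 CPM in stimulated rats (log2 fold change 3.22, SE 0.748). Nptx2, a pentraxin that gathers AMPA receptors at synapses, had 41.5 to 52.0 CPM in sham rats and 47.5, 558, 38.6, 783 and 235 CPM in stimulated rats (log2 fold change 2.83, SE 0.661). Fos had a log2 fold change of 3.47 (SE 0.693). Spry4, a brake on receptor kinase signalling, was the gene that did not pass, at -0.21 (SE 0.490). The adjusted p of the 4 named higher genes was 0.376.

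**Figure D5:**
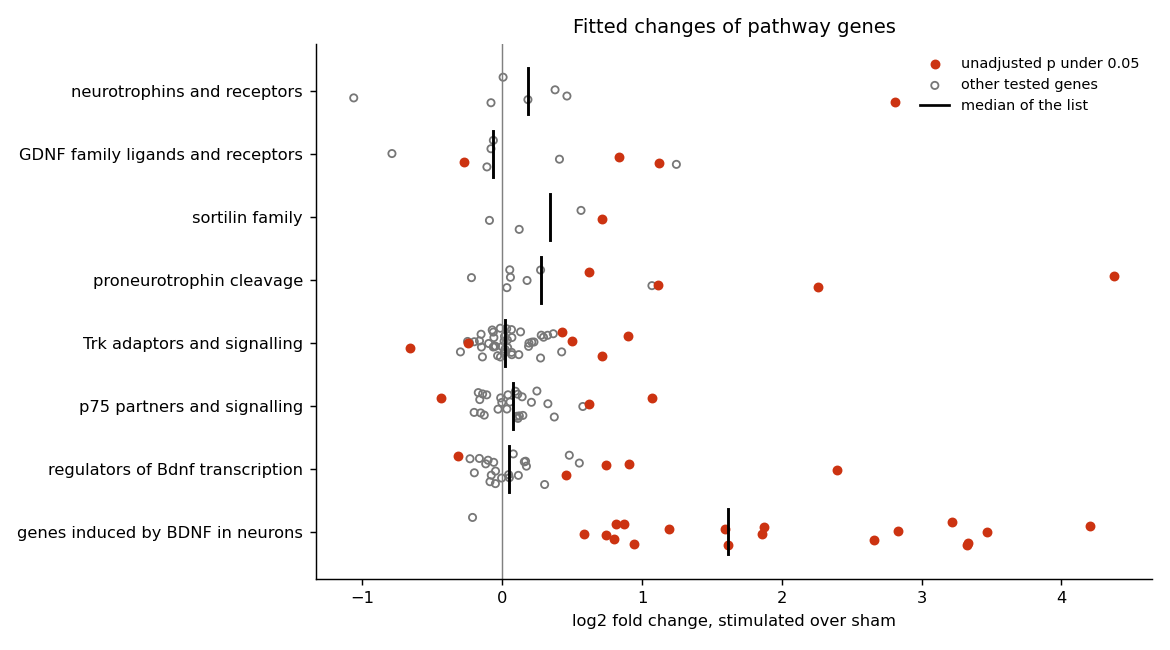
Log2 fold change of each tested gene in the neurotrophin set and in 7 pathway lists (points), filled red at an unadjusted p under 0.05, with the list median as a black bar. Medians lie between -0.06 and 0.34 except for the genes induced by BDNF, at 1.62.

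For 4 genes with a mean count of at least 50, the records with the most similar pattern were sought among 10721 named records by Pearson correlation of log2 CPM over the 10 rats, which share the same few extreme rats. Closest to Bdnf were Midn, Ddhd1, Dclk1, Nptx2 and Trim9, with r from 0.986 to 0.990, and without rats 7 and 9 these values were 0.930 to 0.977. Rat 10, also high for Bdnf, stayed in that second calculation. Within the sham rats alone r was lower, from 0.430 for Midn to 0.789 for Trim9. Midn was closest at 0.990 although its rank correlation was 0.636. Closest to Ntrk3 was Acan, a core protein of perineuronal nets, with r of 0.970 over all rats and 0.903 without rats 7 and 9, followed by Kdm6b, Lonrf3, Braf and Cxadr, for which r without those rats was 0.539 to 0.728. Ntrk2 was most like Tle4, with r of 0.962 and 0.819 without rats 9 and 10, then Rnf39, Frmd6, Kiaa0930 and Lrfn4, whose r without those rats was 0.360 to 0.721. Sort1 was most like Pde10a, with r of 0.959 and 0.834 without rats 1 and 10, then Ing2, Glyr1, Dscaml1 and Hif1an. Each of these 4 receptors and ligands thus had different closest genes, and the likeness is a description without a test.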

How the data were processed

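Polyadenylated RNA of hippocampal CA3 and dentate gyrus tissue was sequenced from 5 sham and 5 stimulated rats, grouped by the treatment label. The deposited values are raw counts per transcript record. Alignment by the authors used BWA and the RN4 build (study's methods), with reads counted over an Ensembl annotation, although the deposited rows carry RefSeq identifiers. How shared reads were counted, and whether strand was used, is not given in the sources used here. Symbols came from the RefSeq table of GRCr8 by identifier (57.8% of tested records matched), and promoter windows from RefSeq.

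Unaligned reads, given in a row of their own, were left out. Records whose summed count reached the 30th percentile (46 counts) were tested by quasi-likelihood in edgeR 4.0.16 (R 4.3.3) after TMM scaling and without covariates, and p-values were adjusted by Benjamini-Hochberg over 22447 records. DESeq2 1.42.0, limma 3.58.1, other edgeR tests, scalings, filters, summed records and the omission of each rat were alternatives. The adjusted deviances and the permutation test on log2 CPM were added after the data had been seen. Log2 CPM used a prior count of 2. Intervals are 95% and, like limits from 3 counts for a count of 0, rest on reads without molecular identifiers. Exact permutation tests used all assignments of rats to groups (smallest p 0.00794). Python 3.11.15, numpy 2.4.6, pandas 2.3.3 and matplotlib 3.10.9 were used.

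The genes and lists were chosen with earlier results of these data known. All 8 genes were named, with up to 4 genes per list at an unadjusted p under 0.05 by lowest p (2 where none passed), the 5 most similar records of genes with a mean count of at least 50, and Fos, Arc and Npas4 per rat. Creb1, Spry4 and the convertases of the Pcsk family were named outside this rule, after their values were seen. A few list genes that the rule would name are not reported here. Rats are separate animals and no number pairs them across groups.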

Additional observations from a re-analysis of the deposited data

Results flagged for a closer look

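A Dixon test on log2 CPM within each group of 5 rats was run on 14 groups, 2 for each of the 7 tested genes, of which chance would single out about 0.7. It singled out 1: sham rat 1 in Sort1, at 664 CPM where the other sham rats had 738 to 766 CPM, with a gap of 0.739 of the group's range against a critical value of 0.71. The high Bdnf and low Ntf3 values of rats 7, 9 and 10 were not singled out, since the test looks for a single distant rat.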

How the results depend on the processing

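The number of the 7 genes at an adjusted p under 0.05 was 0 in 20 of 22 alternatives and 1, Bdnf, with the edgeR likelihood ratio test (log2 fold change 2.81, adjusted p = 0.0144) and the edgeR exact test (2.81, adjusted p = 0.0197). DESeq2 gave Bdnf an adjusted p of 0.0871, and over all alternatives its adjusted p ran from 0.0144 to 0.661. The number at an unadjusted p under 0.05 was 1 as reported, and 2 with library size alone (Bdnf and Ntrk3), and 2 (Bdnf and Ntf3) with no filter, DESeq2, the likelihood ratio test, the edgeR exact test, limma-voom, summed records and adjusted deviances. It was 0 with the exact permutation test on log2 CPM. Omitting 1 rat at a time gave 1 to 3 genes: Ntf3 joined Bdnf without sham rat 2, Ntf3 and Ntrk3 without rat 6 or rat 8, Ntrk2 without rat 7 and Ntrk3 without rat 10. The cause of these differences was not tested. In the 16 alternatives computed for overlap, 0 genes had groups that did not overlap.

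Without 1 rat, the log2 fold change ranged from 2.21 to 3.08 for Bdnf, -1.48 to -0.82 for Ntf3, 0.0059 (without rat 10) to 1.23 (without sham rat 2) for Ntf4, 0.08 to 0.22 for Ntrk2, 0.15 to 0.45 for Ntrk3 and -0.12 to -0.02 for Sort1. Only Ngfr changed sign among the tested genes, from -0.12 to 0.10, in 6 of its 23 alternatives. Ratios of records passed an adjusted p of 0.05 in 0 alternatives. Few counts limit Ntf4, Gdnf and the low values of Ntf3. No paired analysis was possible because the rat numbers are distinct and no label pairs rats across groups.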
